A study of Mus musculus with 6 samples.

Results

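The genes described here are 39 interferon-stimulated genes of the mouse, measured in 6 heart samples taken after myocardial infarction. They were chosen by name: every gene probe on the array whose gene name in the scanner file was one of the 39 counted as a member, and 53 of the 55661 probes kept did. One probe stood for each gene, the one with the highest mean over all arrays. Of the 39 genes, 38 had a probe that the scanner software called well above background on 3 or more arrays and were tested, out of 22991 genes tested in all. The exception was Oas3, an oligoadenylate synthetase, which was well above background only on control array 2 and antagomir array 2. The probe that the file names Gbp6 carries an accession that the current mouse annotation assigns to Gbp7, so values given here under Gbp6 are those of that probe.

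Interferons are secreted proteins that cells make when they sense viral nucleic acid, damage or, in lymphocytes, antigen. Type I interferons signal through the receptor pair IFNAR1 and IFNAR2 to a complex that includes STAT2 and IRF9 and binds the interferon-stimulated response element (ISRE) before antiviral genes such as the Ifit, Oas and Mx families. Interferon-gamma, made mainly by T cells and natural killer cells, signals through IFNGR1 and IFNGR2 to the gamma-activated site (GAS) before genes such as Irf1, the guanylate-binding proteins, the immunity-related GTPases and the chemokine Cxcl9. In infarcted heart, interferon responses are known from leukocytes that enter the damaged muscle. Many of these genes answer to both kinds of interferon, so the names of the groups are conventional.

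All samples were hearts of male C57BL/6 mice labelled 8 weeks old. Every animal had its left anterior descending coronary artery tied, and hearts were taken 21 days later, so there is no heart without an infarct among them. Before surgery, 3 daily tail vein injections were given, of the miR-433 antagomir at 80 mg/kg for 3 samples (antagomir arrays 1 to 3) and of a scrambled control for the other 3 (control arrays 1 to 3). An antagomir is a chemically modified oligonucleotide that blocks a microRNA, and it reaches many organs after injection into blood, so that an effect in the heart need not begin in heart cells. The study asked whether blocking miR-433 limits scarring of the heart. The labels do not say that the samples of a group come from separate mice, so p-values measure only the spread between these samples, which may be technical. They also do not say which arm of the miR-433 hairpin was blocked. Both mature arms, from RefSeq (GRCm38.p6, chromosome 12), are shown to identify the microRNA the treatment was aimed at, 5′ to 3′ with the seed, bases 2 to 8, in capitals.
mmu-miR-433-5p: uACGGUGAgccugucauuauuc
mmu-miR-433-3p: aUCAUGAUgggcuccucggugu

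RefSeq promoter windows (GRCm38.p6) were found for 30 of the 39 members, and the 250 bases before each start were searched on both strands for the ISRE core GAAANNGAAA and the GAS motif TTCNNNGAA. The ISRE core was present in 16 of 30 members (53.3%) against 3.46% of the 27025 genes with such a window. The GAS motif was present in 9 of 30 (30.0%) against 8.13% of all genes. Both were present in 5 members, Bst2, Gbp5, Igtp, Irgm2 and Oas1a, against 0.459% of all genes. The motifs share letters and can overlap, as they do before Bst2. A match is a run of letters and not a proven binding site, and a window without one says nothing about the factor.

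The 160 bases before the start of 6 members are printed because they show the arrangements on which the values below can be read: a GAS followed by an ISRE core (Igtp and Irgm2), a GAS alone (Irf1), ISRE cores alone (Isg15 and Ifit1), and both motifs far apart (Oas1a). Capitals mark every match to either motif, and in Ifit1 the ISRE core lies on the opposite strand and reads TTTCNNTTTC. The windows lie at chr11:58199396-58199555 (plus strand) for Igtp, chr11:58214817-58214976 (plus) for Irgm2, chr11:53769854-53770013 (plus) for Irf1, chr4:156200819-156200978 (minus) for Isg15, chr19:34640729-34640888 (plus) for Ifit1 and chr5:120907526-120907685 (minus) for Oas1a, all in GRCm38.p6 and all read 5′ to 3′ on the strand of the gene.
Igtp: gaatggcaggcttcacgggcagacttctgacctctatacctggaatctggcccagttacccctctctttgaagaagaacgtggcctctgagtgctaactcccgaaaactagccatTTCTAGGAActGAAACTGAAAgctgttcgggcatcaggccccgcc
Irgm2: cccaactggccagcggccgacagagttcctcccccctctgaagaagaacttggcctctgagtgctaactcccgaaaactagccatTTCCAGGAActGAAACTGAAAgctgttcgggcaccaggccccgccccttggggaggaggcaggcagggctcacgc
Irf1: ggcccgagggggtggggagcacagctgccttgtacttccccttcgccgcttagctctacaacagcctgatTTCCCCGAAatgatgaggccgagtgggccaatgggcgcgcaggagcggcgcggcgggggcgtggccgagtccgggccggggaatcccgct
Isg15: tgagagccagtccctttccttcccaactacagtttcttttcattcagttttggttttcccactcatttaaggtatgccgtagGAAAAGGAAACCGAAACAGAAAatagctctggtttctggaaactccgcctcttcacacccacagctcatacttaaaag
Ifit1: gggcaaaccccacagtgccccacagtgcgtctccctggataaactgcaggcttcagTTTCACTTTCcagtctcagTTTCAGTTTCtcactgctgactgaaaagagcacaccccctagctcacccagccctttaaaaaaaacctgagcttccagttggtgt
Oas1a: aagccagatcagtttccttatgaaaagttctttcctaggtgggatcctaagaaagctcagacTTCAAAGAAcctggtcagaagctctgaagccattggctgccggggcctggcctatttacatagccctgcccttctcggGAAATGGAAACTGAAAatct

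Igtp and Irgm2, which lie close together on chromosome 11, share the order and spacing of the motifs: the GAS begins 45 and 75 bases before the start and the ISRE core 34 and 64 bases before it. Before Isg15, 3 ISRE cores overlap in 1 run. Before Oas1a, the GAS begins 98 bases and the first of 2 overlapping ISRE cores 20 bases before the start. Cxcl9, a chemokine gene induced by interferon-gamma, had no match to either motif in its window.

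A level is the log2 processed signal relative to the 75th percentile of its array, so a level of 0 is the brightness of that percentile, and a difference of 1 is 2-fold. Levels are compared between arrays for 1 gene, never between genes. Between 57.7% and 58.5% of gene spots passed the background call in the controls, against 55.2%, 56.2% and 73.6% in the antagomir group, and 0 were saturated. Antagomir array 3 stood apart in a way tied to probe sequence: of probes that were dim everywhere else, 82.4% passed the background call there if they held at least 60% purines and 4.90% if they held at most 40%. The same shares were 0.828% to 3.95% on the other arrays. All arrays were on 1 slide and in 1 scan. Control arrays 1 and 2 lay alone in the first row and the other 4 arrays in the second, so the row overlaps with the group. In the whole table an adjusted p of 0.05 was passed by 3 genes (0.013%), none of them a member, namely Defa-ps1, Gngt1 and a non-coding transcript, named after their values were seen. Cardiomyocyte markers, 6 of 6 well above background on every array, had a median difference of 0.22 (log2) with all 6 higher in the antagomir group, 0 of them with an unadjusted p under 0.05.

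Over all 6 arrays the interferon-stimulated genes showed no difference between the groups that passed the test. Of 38 tested, 24 were higher and 14 lower in the antagomir group, with a median log2 difference of 0.09, and over all genes tested 62.6% were higher with the same median of 0.09. By limma, 0 of 38 had an adjusted p under 0.05 (0.013% of all genes) and 0 had an unadjusted p under 0.05, against 3.05% of all genes higher and 4.16% lower at that threshold. In 0 of 38 were the 3 antagomir arrays all above or all below the 3 control arrays, against 8.78% of all genes above and 6.93% below. The smallest unadjusted p was 0.209, for Cxcl9. The antagomir arrays differed among themselves: the mean over the members of the level minus the control mean was -0.52, 1.84 and -0.63 for antagomir arrays 1 to 3, and -0.12, 0.30 and -0.18 for the controls.

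**Figure D1:**
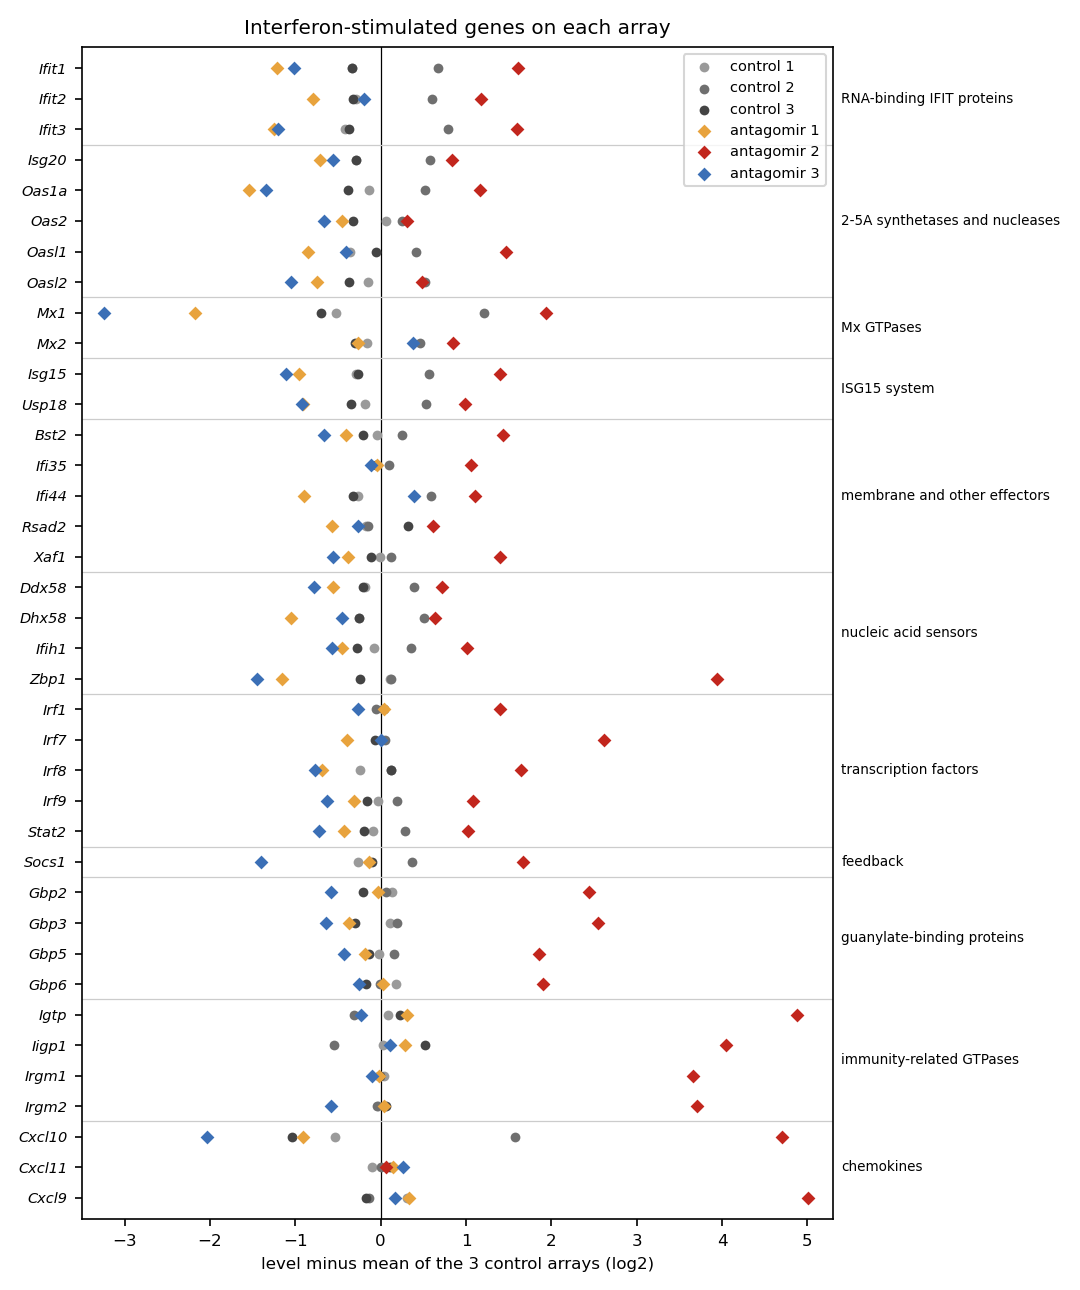
Level of each of 38 interferon-stimulated genes on each array, as log2 difference from the mean of the 3 control arrays (x axis), grouped by role (rows). Circles are control arrays and diamonds antagomir arrays; antagomir array 2 is highest for 36 of 38 genes, and antagomir arrays 1 or 3 are lowest for 33.

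Antagomir array 2 carried the highest level of the 6 arrays for 36 of 38 members, where 18.4% of all genes had their highest level on it. On it 29 of 38 lay at least 2-fold above the control mean (4.12% of all genes) and 10 at least 4-fold (1.36%). Antagomir array 1 or 3 carried the lowest level for 33 of 38 (31.5% of all genes). These counts describe single arrays and have no replicate check.

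The type I antiviral genes were spread widely in both groups. Of 9 tested, 3 were higher and 6 lower in the antagomir group, with a median log2 difference of -0.27. Their median difference from the control mean was -0.29, 0.52 and -0.34 in the controls and -0.85, 1.18 and -1.02 in the antagomir group. Control array 2 was the highest of the other 5 arrays for all 9, against 23.9% of all genes. The sign of the median rests on that array and on the slide row: without control array 2 it was 0.11, and with the row as a block 0.09. Without antagomir array 1 or 3 it was 0.20 and 0.18.

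Ifit1, Ifit2 and Ifit3 encode cytosolic proteins that bind viral RNA. Ifit1 lay at -1.12, -0.11 and -1.13 on the control arrays and at -2.01, 0.82 and -1.81 on the antagomir arrays, a difference of -0.21 (log2, SE 0.80, adjusted p = 0.93 by limma). Ifit3 lay at 1.59, 2.79 and 1.63 on the control arrays and at 0.76, 3.60 and 0.80 on the antagomir arrays, a difference of -0.28 (SE 0.84). For both genes the antagomir group held the highest array and the 2 lowest, so it enclosed the controls. Ifit2 lay at -0.06, 0.83 and -0.09 on the control arrays and at -0.56, 1.41 and 0.04 on the antagomir arrays, a difference of 0.07 (SE 0.55). For Ifit2 antagomir array 3 lay among the controls.

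The oligoadenylate synthetases make a messenger that activates the RNA-degrading enzyme RNase L, and the Oasl genes encode relatives. Oas1a lay at 1.59, 2.25 and 1.34 on the control arrays and at 0.18, 2.89 and 0.38 on the antagomir arrays, a difference of -0.57 (SE 0.75). Antagomir arrays 1 and 3 were below every control by about 1 log2 unit, and antagomir array 2 was above every control. Oas2 lay at 1.75, 1.94 and 1.36 on the control arrays and at 1.23, 1.99 and 1.02 on the antagomir arrays, a difference of -0.27 (SE 0.30). On antagomir array 2 Oas2 was 1.04-fold its level on control array 2, the next highest. Oasl1 lay at -0.28, 0.49 and 0.01 on the control arrays and at -0.77, 1.54 and -0.33 on the antagomir arrays, a difference of 0.07 (SE 0.62). Oasl2 lay at 1.04, 1.70 and 0.82 on the control arrays and at 0.45, 1.67 and 0.13 on the antagomir arrays, a difference of -0.44 (SE 0.45). Oasl2 was one of the 2 members, with Cxcl11, that were not highest on antagomir array 2. Oas3, not tested, lay at -6.01, -4.51 and -5.82 on the control arrays and at -6.76, -3.18 and -5.08 on the antagomir arrays. The only arrays on which it was well above background were the same 2 that were highest for most type I genes.

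Mx1 and Mx2 belong to a gene family that includes GTPases that block virus replication. Mx1 lay at -3.25, -1.52 and -3.43 on the control arrays and at -4.90, -0.79 and -5.97 on the antagomir arrays, a difference of -1.16 (SE 1.38). All 3 control arrays measured it above background, but antagomir array 2 alone of its group did, so its levels on antagomir arrays 1 and 3 are upper bounds. Mx2 lay at -1.08, -0.46 and -1.22 on the control arrays and at -1.18, -0.07 and -0.54 on the antagomir arrays, a difference of 0.32 (SE 0.35). Mx2 was the 1 type I gene that was lowest on a control array. Its probe has 65.0% purines, in the range in which dim probes were bright on antagomir array 3.

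The interferon-gamma group stood out on 1 array. All 7 genes (Gbp2, Gbp3, Gbp5, Gbp6, Irgm1, Irgm2 and Cxcl9) had a higher mean in the antagomir group, with a median log2 difference of 0.61, and 0 of 7 passed the test. Their median difference from the control mean was 0.11, -0.00 and -0.17 on the control arrays and -0.02, 2.54 and -0.43 on the antagomir arrays, so the higher means came from antagomir array 2, and without that array the median was -0.27. Control array 2 was the highest of the other 5 for 2 of 7.

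The guanylate-binding proteins are large GTPases that attack the vacuoles of intracellular parasites. Gbp2 lay at 2.72, 2.65 and 2.39 on the control arrays and at 2.56, 5.03 and 2.01 on the antagomir arrays, a difference of 0.61 (SE 0.77). Gbp3 lay at 1.86, 1.95 and 1.45 on the control arrays and at 1.38, 4.30 and 1.12 on the antagomir arrays, a difference of 0.51 (SE 0.85). Both were about 5-fold their next highest array on antagomir array 2 (4.97-fold for Gbp2, 5.08-fold for Gbp3) and lowest on antagomir array 3. Gbp5 lay at 0.39, 0.56 and 0.26 on the control arrays and at 0.22, 2.26 and -0.03 on the antagomir arrays, a difference of 0.41 (SE 0.61). The probe named Gbp6 lay at 0.19, 0.01 and -0.16 on the control arrays and at 0.04, 1.92 and -0.24 on the antagomir arrays, a difference of 0.56 (SE 0.57). For these 2 genes antagomir array 2 was 3.26-fold and 3.32-fold the next highest array.

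The immunity-related GTPases, which act on membranes around intracellular microbes, stood further out. Irgm1 lay at 1.75, 1.70 and 1.71 on the control arrays and at 1.70, 5.39 and 1.61 on the antagomir arrays, a difference of 1.18 (SE 1.02). Its 5 other arrays lay within 0.14 log2 units, and antagomir array 2 was 12.4-fold the highest of them. Irgm2 lay at 2.42, 2.41 and 2.52 on the control arrays and at 2.48, 6.16 and 1.87 on the antagomir arrays, a difference of 1.05 (SE 1.1). Igtp, which encodes IRGM3, lay at 3.17, 2.77 and 3.31 on the control arrays and at 3.40, 7.96 and 2.86 on the antagomir arrays, a difference of 1.66 (SE 1.33). Iigp1, which encodes an effector of the same family, lay at 1.13, 0.56 and 1.63 on the control arrays and at 1.39, 5.16 and 1.21 on the antagomir arrays, a difference of 1.48 (SE 1.08). All 4 genes were at least 3.67 log2 units above the control mean on antagomir array 2, and in all 4 the other 5 arrays overlapped between the groups. The adjusted p by limma was between 0.692 and 0.746 for the 4.

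Cxcl9 and Cxcl10 encode chemokines that draw T cells through the receptor CXCR3. Cxcl9 lay at -0.42, -0.86 and -0.90 on the control arrays and at -0.40, 4.29 and -0.55 on the antagomir arrays, a difference of 1.84 (SE 1.31, adjusted p = 0.692 by limma). Its level on antagomir array 2 was 32.3-fold the control mean, the rank 14 of 22991 genes on that array. Cxcl10 lay at -2.58, -0.46 and -3.08 on the control arrays and at -2.95, 2.66 and -4.07 on the antagomir arrays, a difference of 0.59 (SE 1.82). It was high on control array 2 as well, as the type I genes were, and not well above background on antagomir array 3. Cxcl11, the third ligand of CXCR3, lay at 7.29, 7.39 and 7.50 on the control arrays and at 7.53, 7.46 and 7.66 on the antagomir arrays, a difference of 0.16 (SE 0.14). In C57BL/6 mice a frameshift is known to leave no CXCL11 protein. That probe has 63.3% purines. A second Cxcl11 probe was far dimmer, at 2.15, 2.57 and 2.16 on the control arrays and 1.98, 2.30 and 2.42 on the antagomir arrays. Its difference had the opposite sign, at -0.06. What each probe measures was not tested.

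**Figure D2:**
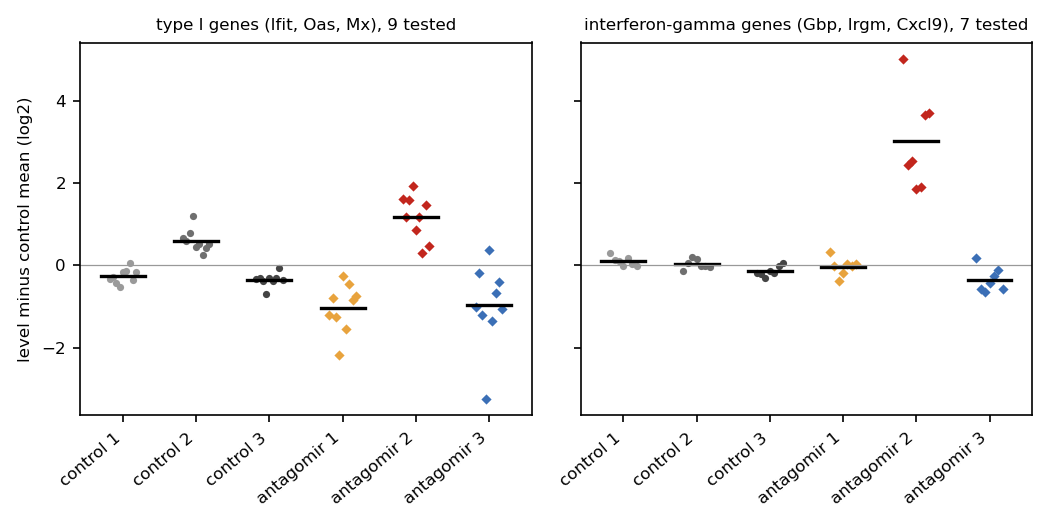
Log2 difference from the control mean (y axis) on each array (x axis) for 9 type I genes and 7 interferon-gamma genes; points are genes and bars the mean of the group on that array. The type I mean reaches 1.18 and the interferon-gamma mean 3.02 on antagomir array 2, and on antagomir array 1 they are -1.03 and -0.03.

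Set against each other on each array, the type I genes lay lower relative to the interferon-gamma genes on every antagomir array. The mean of the type I genes minus the mean of the interferon-gamma genes, each as difference from the control mean, was -0.36, 0.57 and -0.22 on the control arrays and -1.0, -1.84 and -0.63 on the antagomir arrays. The groups did not overlap, and the SD was 0.50 (n = 3) in the controls and 0.62 (n = 3) in the antagomir group. On antagomir array 2 this came with both groups high, and on antagomir array 1 with type I genes low and interferon-gamma genes at the control level. With medians in place of means the values were -0.40, 0.52 and -0.16 against -0.83, -1.36 and -0.58. With Igtp and Iigp1 added to one list and 9 further antiviral genes to the other, they were -0.30, 0.54 and -0.24 against -0.90, -2.17 and -0.44. These are scores over chosen genes and carry no p. Even groups of 3 against 3 that do not overlap cannot reach a permutation p below 0.1. Mx1 lowers the type I means on antagomir arrays 1 and 3. It lay at -2.17 and -3.24 from the control mean on those 2 arrays, where it was not well above background. The highest tested type I gene on antagomir array 2, Mx1 at 1.94, barely passed the lowest of the interferon-gamma genes, Gbp5 at 1.86. Oas3, not tested, lay 2.27 above its control mean there, but of the controls only array 2 had it well above background.

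Among the remaining members, the 5 regulators of transcription were all at least 2-fold above the control mean on antagomir array 2. Irf1, a transcription factor whose gene interferon-gamma induces, lay at 2.99, 2.91 and 3.01 on the control arrays and at 3.01, 4.38 and 2.70 on the antagomir arrays, a difference of 0.39 (SE 0.44). Irf7, which amplifies the making of type I interferon, lay at -1.18, -1.15 and -1.26 on the control arrays and at -1.60, 1.42 and -1.19 on the antagomir arrays, a difference of 0.74 (SE 0.78). Each was almost level on the controls and stood out on 1 array, 2.57-fold the next highest for Irf1 and 5.93-fold for Irf7. Irf8, Irf9 and Stat2 were 1.03 to 1.65 log2 units above the control mean on that array, and their differences between the groups over all arrays were 0.07, 0.05 and -0.04.

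The sensors of nucleic acid differed in height on antagomir array 2. Zbp1, a sensor of Z-form nucleic acid linked to cell death, lay at -0.91, -0.89 and -1.26 on the control arrays and at -2.17, 2.93 and -2.46 on the antagomir arrays, a difference of 0.45 (SE 1.43). By this probe it was 15.4-fold the control mean on antagomir array 2 and below every control on the other 2. A second Zbp1 probe, with 68.3% purines, lay above every control on antagomir array 3. It was at -1.81 there and at -3.08, -2.27 and -3.65 on the control arrays. The RNA sensors did not show the height of Zbp1 on antagomir array 2. Ddx58, which encodes RIG-I, lay at 1.13, 1.71 and 1.11 on the control arrays and at 0.76, 2.03 and 0.53 on the antagomir arrays, a difference of -0.21 (SE 0.43). Dhx58, which encodes the related LGP2, lay at -2.04, -1.28 and -2.04 on the control arrays and at -2.83, -1.15 and -2.24 on the antagomir arrays, a difference of -0.29 (SE 0.47). Ifih1, which encodes MDA5, had a difference of -0.00 (SE 0.46), with a second probe at 0.44. All 3 were highest on antagomir array 2 and next highest on control array 2.

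Of the other effectors, all but Rsad2 were highest on antagomir array 2 and next highest on control array 2. Usp18, a protease that removes ISG15 and dampens the type I receptor, lay at -0.45, 0.26 and -0.62 on the control arrays and at -1.18, 0.71 and -1.19 on the antagomir arrays, a difference of -0.28 (SE 0.57). Ifi35 lay at 1.78, 1.93 and 1.77 on the control arrays and at 1.79, 2.89 and 1.71 on the antagomir arrays, a difference of 0.30 (SE 0.33). Ifi35 was about level on 5 arrays, within 0.21 log2 units. Ifi44 lay at -1.29, -0.43 and -1.34 on the control arrays and at -1.92, 0.08 and -0.63 on the antagomir arrays, a difference of 0.20 (SE 0.55). Its probe has 71.7% purines, the highest share among the members, and its level on antagomir array 3 lay above 2 of the controls. The part of probe composition in these levels was not tested. Isg15, the ubiquitin-like protein that is joined to other proteins, differed by -0.22 (SE 0.71) by 1 probe, and a second probe had the opposite sign, at 0.07. Isg20, an exonuclease, Rsad2, which encodes viperin, Bst2, which tethers budding virus, and Xaf1, a promoter of apoptosis, had differences of -0.15, -0.07, 0.12 and 0.15. A second Xaf1 probe gave -0.24. Socs1, the feedback inhibitor of the receptor kinases, had a difference of 0.05 (SE 0.75), and it was 3.18-fold the control mean on antagomir array 2 and lowest on antagomir array 3.

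Leaving out antagomir array 2, which was one of the alternatives in which each array was left out in turn, turned the direction of 19 of 38 members. Without it 33 of 38 were lower and 5 higher in the antagomir group (36.5% of all genes were lower), with a median of -0.50 where the median of all genes was 0.12. By limma 13 of 38 had an unadjusted p under 0.05, all lower and 0 higher, against 5.53% of all genes lower and 5.21% higher at that threshold, and 0 had an adjusted p under 0.05. In 22 of 38 both antagomir arrays lay below all 3 controls, against 14.6% of all genes. In 1, Cxcl11 by its brighter probe, both lay above them, against 22.8%. These values describe 2 antagomir arrays against 3 controls after the array highest in 36 members was taken out, and they are no separate evidence of a lower level under the antagomir. No left-out array other than antagomir array 2 gave a member with an unadjusted p under 0.05.

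**Figure D3:**
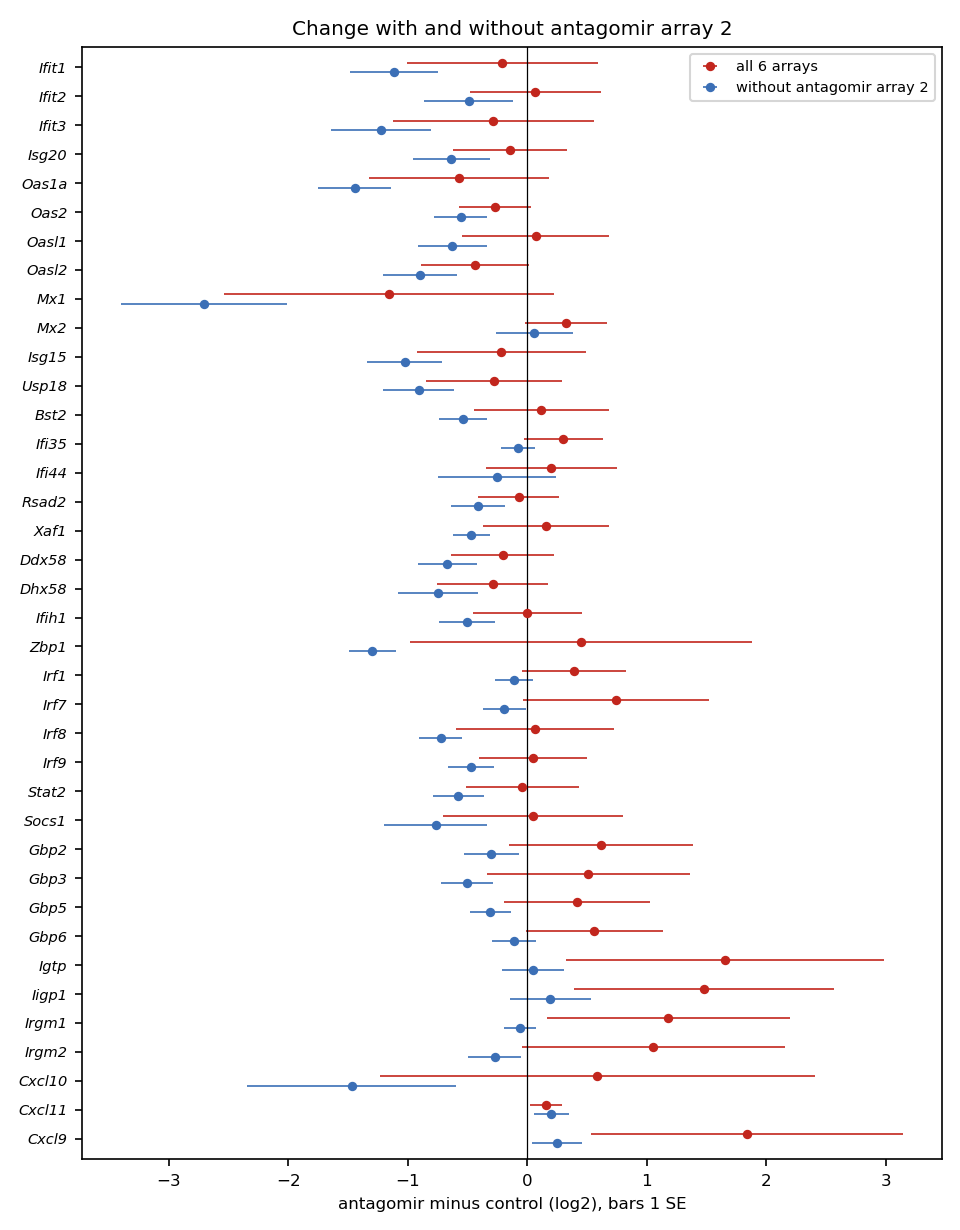
Antagomir minus control (x axis, log2, bars 1 SE from limma) for 38 genes in rows, over all 6 arrays (red) and without antagomir array 2 (blue). The blue points lie below 0 for 33 genes, and the red points furthest to the right are Cxcl9, Igtp and Iigp1.

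The 13 were Ifit1 (-1.12), Ifit3 (-1.22), Mx1 (-2.71), Oas1a (-1.45), Oasl2 (-0.90), Isg15 (-1.03), Usp18 (-0.91), Bst2 (-0.54), Xaf1 (-0.47), Ddx58 (-0.67), Zbp1 (-1.30), Irf8 (-0.73) and Stat2 (-0.58), as log2 differences without antagomir array 2. Of these 5 were in the type I group and 0 in the interferon-gamma group. Mx1 was not well above background on either remaining antagomir array, so its -2.71 and its p rest on signals near background. As a bound, the controls were at least 3.25-fold higher. The second Zbp1 probe lay above every control on antagomir array 3. Among the type I genes 8 of 9 were lower, with a median of -0.90, and in 7 both arrays lay below all controls. Among the interferon-gamma genes 6 of 7 were lower, with a median of -0.27, and in 2 both arrays lay below all controls. The shares of all genes were 36.5% lower and 14.6% with both arrays below all controls. Igtp, Iigp1, Cxcl9, Cxcl11 (by its brighter probe) and Mx2 were the 5 members that stayed higher, by 0.04, 0.19, 0.25, 0.20 and 0.06.

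The ligands themselves were mostly too dim to test. Ifng, the gene of interferon-gamma, was well above background on antagomir array 2 and on no other array. Its processed signal was 479 there and 3.69 to 22.4 on the other arrays, which puts antagomir array 2 at least 45.9-fold above the controls. Ifnb1, the gene of interferon-beta, was well above background only on control array 3. Of 15 ligand genes on the array 6 were tested, and 2 had an unadjusted p under 0.05 by limma, both higher, against 3.05% of all genes higher. Ifna1 lay at -4.86, -4.52 and -5.06 on the control arrays and at -3.30, -3.08 and -2.62 on the antagomir arrays, a difference of 1.81 (SE 0.24, adjusted p = 0.402 by limma). Ifnl3, a type III interferon gene, lay at -2.54, -2.39 and -2.35 on the control arrays and at -1.94, -1.83 and -1.69 on the antagomir arrays, a difference of 0.61 (SE 0.14, adjusted p = 0.545 by limma). The groups did not overlap for either gene, as for 8.78% of all genes in that direction, and both were lowly expressed. They overlapped for the other tested interferon-alpha genes, Ifna7 (-0.33), Ifna12 (0.41) and Ifna14 (0.37). The interferon-alpha genes are near-identical copies, so which of them the Ifna1 probe measured is uncertain.

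The receptor genes differed little. Ifnar1 and Ifnar2 had differences of -0.17 (SE 0.20) and -0.07 (SE 0.17), and Ifngr1 and Ifngr2 of -0.23 (SE 0.22) and 0.10 (SE 0.19). None of the 4 had an unadjusted p under 0.05 by limma. Among 15 sensors and adaptors 0 passed the unadjusted threshold, and the 2 smallest p-values were those of Ikbke, a kinase that activates IRF3, at -0.63 (SE 0.30), and of Adar, an RNA-editing enzyme, at -0.24 (SE 0.13). Among 8 brakes 0 passed, and the median was 0.12.

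Another 40 interferon-stimulated genes that are not members were tested for comparison. Of these 24 were higher and 16 lower, with a median of 0.16. Over all genes tested 62.6% were higher, with a median of 0.09. At an unadjusted p under 0.05 by limma 1 was higher and 0 lower, against 3.05% and 4.16% of all genes. The gene was Herc6, an ISG15 ligase, at 1.38 (SE 0.45, adjusted p = 0.651 by limma). Its probe lies at the lower edge of the purine range in which dim probes were bright on antagomir array 3. On antagomir array 2, 13 of the 40 lay at least 4-fold above the control mean, where 1.36% of all genes did. Among them, chosen after their values were seen, Tgtp2, a GTPase gene, lay at 3.32 above the control mean, Cd274, which encodes PD-L1, at 3.08, and Psmb8, an immunoproteasome subunit, at 2.76. Without antagomir array 2, 31 of 40 were lower (36.5% of all genes). At an unadjusted p under 0.05 by limma 13 were lower and 1 higher, against 5.53% and 5.21% of all genes. As for the members, these counts are no separate evidence of a lower level under the antagomir.

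The samples are whole heart RNA, in which fewer cells of a type and less RNA per cell cannot be told apart. Markers of T and natural killer cells moved with the interferon-gamma genes on antagomir array 2. Of 8 tested, 7 were at least 2-fold above the control mean there and 5 at least 4-fold, and the median difference from the control mean was 0.18, -0.12 and -0.05 on the control arrays and -0.07, 3.45 and 0.28 on the antagomir arrays. Gzma, the gene of granzyme A, lay at -2.36, -2.47 and -2.81 on the control arrays and at -2.57, 4.01 and -3.09 on the antagomir arrays. Nkg7, a protein of cytotoxic granules, lay at 1.03, 0.96 and 1.05 on the control arrays and at 1.14, 3.59 and 1.35 on the antagomir arrays. Cd3e and Prf1 were 1.74 and 1.57 above the control mean on that array. By 1 of its 2 probes, Cd8a was well above background on that array alone and at least 17.4-fold above the controls there, and the other probe was well above background on antagomir array 3 as well. Cd4 was at the control level, 0.0049 above it. Over all arrays 0 of the 8 had an unadjusted p under 0.05.

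**Figure D4:**
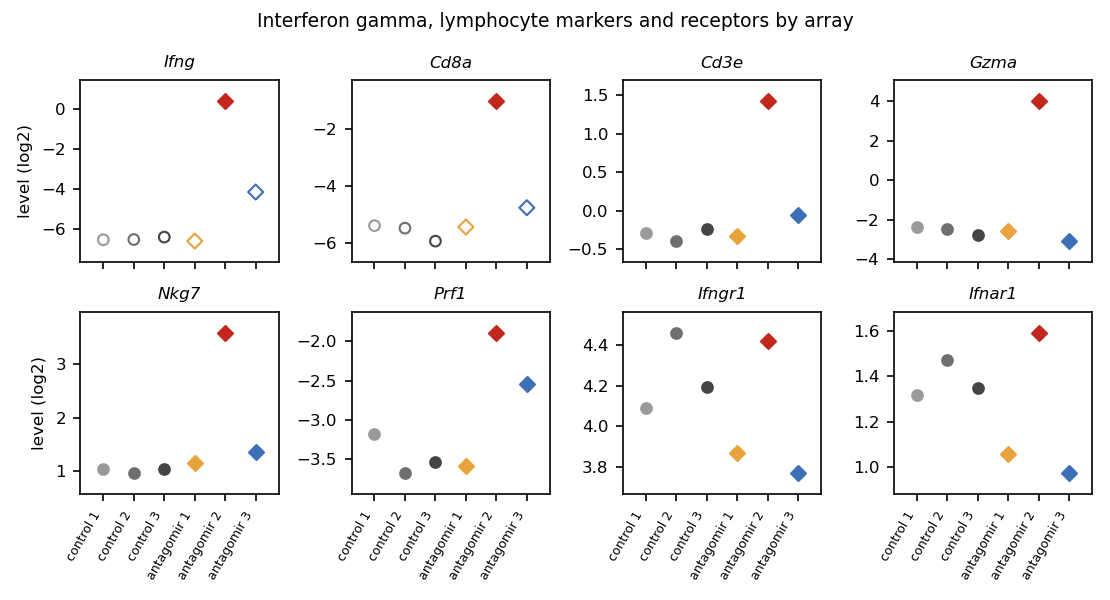
Level (y axis, log2 relative to the 75th percentile of the array, own scale in each panel) of Ifng, lymphocyte markers and receptor genes on each array (x axis). Filled symbols were well above background or belong to genes that were tested, and open symbols were not well above background; Ifng and the Cd8a probe shown have 1 filled symbol, antagomir array 2.

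Other leukocyte markers also differed between arrays. Of 4 neutrophil markers, S100a8, S100a9 and Retnlg were 4.30, 4.49 and 3.90 above the control mean on antagomir array 2, and Csf3r, the receptor of G-CSF, was at -0.09. The 4 had a median of 1.07, -1.26 and -0.12 on the control arrays and -1.64, 4.10 and 1.42 on the antagomir arrays. The 9 macrophage and monocyte markers had a median of -0.05, 0.23 and -0.20 on the control arrays and -0.49, 0.64 and -1.16 on the antagomir arrays, the same order as the type I genes within the control group and with antagomir arrays 1 and 3 again lowest. Cx3cr1, a receptor of macrophages, lay at 1.31, 2.66 and 1.68 on the control arrays and at -1.0, 2.34 and -1.08 on the antagomir arrays. Adgre1, which encodes F4/80, lay at 1.51, 1.83 and 1.45 on the control arrays and at 0.67, 2.29 and -0.00 on the antagomir arrays. Both were below every control on antagomir arrays 1 and 3. Other markers of the list did not follow. Mertk, a receptor for dying cells, was 0.47 below the control mean on antagomir array 2. Cd68, a protein of lysosomes, was 1.12 and 2.61 above the control mean on antagomir arrays 2 and 3, with a difference of 1.16 over all arrays (SE 0.76). Its probe has 65.0% purines, in the range in which dim probes were bright on antagomir array 3. It was well above background on 3 of the 6 arrays. Itgam, which encodes CD11b, was at -0.31 and 0.07 on antagomir arrays 2 and 3. Without antagomir array 2, 5 of the 9 had an unadjusted p under 0.05 by limma, all lower, against 5.53% of all genes lower. Dendritic cell and B cell markers had medians of 0.67 and 0.70 on antagomir array 2, endothelial markers -0.27 and cardiomyocyte markers 0.15. Of 6 dendritic cell markers, 2 were higher and 4 lower in the antagomir group over all arrays, with a median of -0.18. The 2 higher, Zbtb46 and Ccr9, had an unadjusted p under 0.05 by limma, against 3.05% of all genes higher. Their differences were 0.65 and 0.79. Of 5 fibroblast markers, Col1a1, Postn and Lum were below every control on all 3 antagomir arrays, against 6.93% of all genes. Their differences were -2.82, -3.71 and -1.59, with unadjusted p under 0.05 by limma, against 4.16% of all genes lower. None passed the adjusted threshold. Pdgfra and Dcn overlapped between the groups, and Dcn was at 0.03, 0.20 and -0.23 on the antagomir arrays. The part of these cell types in the levels of the interferon-stimulated genes was not tested.

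The motifs can be set beside the levels on antagomir array 2 as a description of 29 tested genes with a promoter window. The median difference from the control mean was 1.86 for 5 genes with both motifs, 1.64 for 10 with the ISRE core alone, 1.29 for 4 with the GAS alone and 1.09 for 10 with neither. The ranges overlapped, from 1.17 to 4.88 with both and from 0.48 to 5.01 with neither. The ends of that last range were Oasl2 and Cxcl9, and the GAS alone spanned 0.83 to 1.65. Igtp and Irgm2, with the same arrangement of motifs, lay at 4.88 and 3.71.

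**Figure D5:**
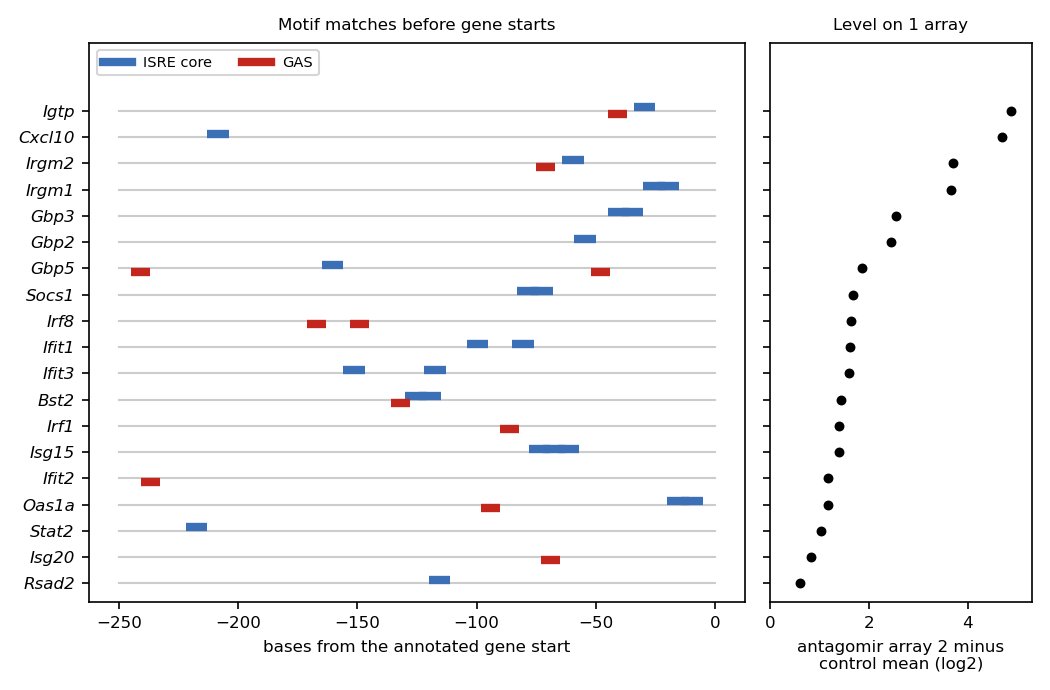
Left, matches to the ISRE core (blue) and GAS motif (red) in the 250 bases before the gene start (x axis, bases) for the 19 tested members with a match, in the order of their level on antagomir array 2. Right, that level as log2 difference from the control mean; it runs from 0.62 for Rsad2 to 4.88 for Igtp, and genes with either motif are found along the whole range.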

How the data were processed

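Total RNA of 6 heart samples was labelled with Cy3 and read on 1-colour Agilent arrays. Per the submitters' processing notes, the software behind the deposited scanner files was Agilent Feature Extraction 10.7.1.1. Per the file headers they hold processed signals, mean signals and backgrounds as intensity, with other values that mark spots as 0 or 1. The authors' deposited table adds normalised log2 columns, used as an alternative, and the labels state no method for them. The array's own probe names were brought up to date with mouse gene tables (GRCm38.p6).

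Control and outlier spots were dropped and repeated spots averaged. Processed signals were put on a log2 scale and set relative to the 75th percentile of their array. A probe was tested if 3 or more of the 6 arrays called it well above background (31716 probes, 22991 genes), and the brightest probe stood for its gene. Fits used measured signals throughout, also where a group had no array well above background. For Mx1, Ifng and Cd8a the fold against such a group is given as a bound against the lowest signal well above background. Precision is limited by 3 arrays a group. The test was limma 3.58.1 under R 4.3.3 (two-sided, Benjamini-Hochberg over all genes). The steps were tested on simulated data. A permutation of 3 against 3 cannot give a p below 0.1. Figures were drawn with matplotlib 3.10.9 from tables made with pandas 2.3.3.

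The members and lists were chosen with earlier results of these data known. Every member is named, with every array for both compared groups and for the 12 other members with the smallest p. Of each further list up to 4 genes with the smallest p are named, besides Ifnb1, Ifng and the receptors. Another gene under this rule is not reported here. The labels do not say whether equal replicate numbers pair the samples. Correlations of deviations were 0.22, 0.14 and -0.05 for equal numbers and -0.28 to 0.17 for unequal ones, which cannot decide it. Alternatives were quantile, median and normexp scaling, the authors' table, no filter and a stricter one, the mean of a gene's probes, a variance trend, array weights, wider gene lists, the replicate number or slide row as a block, and each array left out.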

Additional observations from a re-analysis of the deposited data

How the results depend on the processing

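Over all settings tried, 0 of the 38 members passed an adjusted p of 0.05. At an unadjusted p under 0.05 the count of members was 0 over all arrays, 3 with median scaling and 0 to 13 with 1 array left out, the 13 without antagomir array 2. The 13 lower members and the direction of 19 of the 38 members rest on that array. The difference of type I and interferon-gamma medians, -0.88 over all arrays, stayed below 0 in every setting tried, from -1.06 to -0.54. Median scaling moved the median of all genes by -0.47, so that the members' median of -0.38 lay 0.00204 above that of all genes, as in the scaling used here. Quantile scaling moved it by -0.12, the authors' table by -0.12, normexp by -0.11 and no filter by 0.17, the last by testing more genes. The count of other pathway genes at an unadjusted p under 0.05, 4 over all arrays, was 2 with quantile scaling, 1 with median scaling, 2 in the authors' table, 2 with the slide row as a block, and 2 to 21 with 1 array left out. The 3 genes of the whole table past the adjusted threshold became 1 with quantile scaling, 199 with median scaling, 0 with normexp, 1 in the authors' table, 1 with no filter, 0 with all 6 arrays above background, 8 with array weights, 0 with the slide row as a block, and 0 to 3 with 1 array left out. With the replicate number as a block, a pairing that the labels do not state, that count was 0 and the count of other pathway genes 6. No call on a member turned. The array weights did not fully converge. The cause of these differences was not tested.

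With slide row blocked, the sign turned for Ifit1 (0.13), Ifit3 (0.091), Isg15 (0.051), Isg20 (0.15), Oas2 (0.051), Irf8 (-0.057), Stat2 (0.15), Usp18 (0.072), Ifih1 (0.28), Ifngr2 (-0.075), Itgam (0.085) and Csf3r (0.093). With median scaling, the sign turned for Ifit2 (-0.40), Mx2 (-0.15), Oasl1 (-0.40), Irf1 (-0.077), Irf8 (-0.41), Irf9 (-0.43), Ifi35 (-0.17), Ifi44 (-0.27), Bst2 (-0.35), Xaf1 (-0.32), Zbp1 (-0.022), Gbp5 (-0.057), Cxcl11 (-0.32), Socs1 (-0.43) and Ifngr2 (-0.37). With array weights, the sign turned for Ifit2 (-0.10), Oasl1 (-0.12), Irf8 (-0.15), Irf9 (-0.084), Ifi44 (-0.10), Bst2 (-0.077), Xaf1 (-0.080), Zbp1 (-0.37), S100a8 (-1.48), S100a9 (-1.12), Cd68 (-0.067), Retnlg (-0.62) and Dcn (0.059). With the mean of a gene's probes, the sign turned for Ifih1 (0.22), Xaf1 (-0.046) and Itgam (0.22). With quantile scaling, the sign turned for Cxcl10 (-0.27), Cxcl11 (-0.010), Socs1 (-0.26) and Ifngr2 (-0.015). In the authors' table, the sign turned for Cxcl10 (-0.27), Cxcl11 (-0.0079), Socs1 (-0.26) and Ifngr2 (-0.016). With normexp background correction and quantile scaling, the sign turned for Cxcl11 (-0.023), Socs1 (-0.038) and Ifngr2 (-0.016). With 1 array left out, the sign turned in at least 1 case for the following genes, with their lowest and highest log2 difference: Ifit1 (-1.12 to 0.30), Ifit2 (-0.49 to 0.49), Ifit3 (-1.22 to 0.20), Isg15 (-1.03 to 0.22), Isg20 (-0.64 to 0.14), Oasl1 (-0.63 to 0.53), Rsad2 (-0.42 to 0.18), Irf1 (-0.11 to 0.72), Irf7 (-0.19 to 1.31), Irf8 (-0.73 to 0.48), Irf9 (-0.47 to 0.38), Stat2 (-0.58 to 0.30), Usp18 (-0.91 to 0.040), Ifi35 (-0.077 to 0.51), Ifi44 (-0.26 to 0.75), Ifih1 (-0.51 to 0.28), Ddx58 (-0.67 to 0.078), Dhx58 (-0.75 to 0.091), Bst2 (-0.54 to 0.51), Xaf1 (-0.47 to 0.51), Zbp1 (-1.30 to 1.40), Gbp2 (-0.30 to 1.21), Gbp3 (-0.50 to 1.09), Gbp5 (-0.31 to 0.84), Gbp6 (-0.11 to 0.97), Irgm1 (-0.061 to 1.82), Irgm2 (-0.27 to 1.87), Cxcl10 (-1.47 to 1.90), Socs1 (-0.77 to 0.77), Ifnar2 (-0.18 to 0.052), Ifngr2 (-0.067 to 0.18), Gzma (-0.29 to 3.27), Tgtp2 (-0.46 to 1.49), Psmb8 (-0.28 to 1.29), S100a8 (-0.25 to 2.88), S100a9 (-0.16 to 2.93), Itgam (-0.21 to 0.012), Csf3r (-0.14 to 0.022) and Dcn (-0.10 to 0.11).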
